A study of Arabidopsis thaliana with 24 samples.

Results

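A set of 126 probe sets was lower in all 3 COP9 signalosome (csn) mutant lines of Arabidopsis thaliana than in wild type (WT), both in darkness and in light, although WT itself held nearly the same level in both. The members were chosen from the measured values. A probe set belonged where WT light minus dark lay between -0.5 and 0.5 and where each mutant minus WT was at most -1.3 in darkness and in light, all as differences of group means of log2(signal + 50). The rule gave 126 of the 18751 probe sets that reached a signal of 100 on 3 or more arrays, or 0.672% of them, and 1.22% of the 10299 whose WT level was independent of light in this sense. A further 3 probe sets met the rule, for WES1, PYK10 and EXPA4, and were left out by name with 11 other genes. The mutant and WT differences below therefore describe how the members were picked and carry no test, whereas light against darkness within a mutant, and 1 mutant against another, are contrasts that the rule did not name.

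The COP9 signalosome is a nuclear protein complex that takes the ubiquitin-like modifier NEDD8 off cullin-RING ubiquitin ligases, and so lets those ligases cycle between active and inactive forms. Plants use such ligases in auxin, jasmonate, gibberellin and light signalling. Mutants that lack the complex were first found because their dark-grown seedlings look as if grown in light, and strong alleles die as seedlings.

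Whole seedlings of 7 days were measured on Affymetrix ATH1 arrays, with 3 arrays labelled as independent biological replicates in each of 8 groups. Each of 4 genotypes was grown in darkness or in light. They were WT, csn3-1 (called csn3), csn4-1 (called csn4) and the line csn5 (csn5a-2 csn5b), called csn5-labelled. The light-grown WT arrays were described as the wild type of csn4-1, a word the dark-grown WT arrays lacked. No treatment other than light was named.

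CSN5B, the only mutated subunit gene with a probe set that names it alone, read from 1573 to 1897 in csn5-labelled dark arrays and from 651 to 895 in csn5-labelled light arrays, against 110 to 177 in the 6 WT arrays. The direction is opposite to that of a lost transcript. Whether its probes lie before or after the mutated site is not given, and the line is therefore called csn5-labelled. The csn4 light and WT light arrays carried an earlier range of record numbers than the other 18, so contrasts across the ranges cannot be told apart from them. These are light against darkness in WT and in csn4, csn3 and csn5-labelled against WT in light, and csn4 against csn3 and csn5-labelled arrays in light. All contrasts within darkness, csn4 against WT in light, csn3 against csn5-labelled arrays in light, and light against darkness in csn3 and in csn5-labelled arrays lie within 1 range. Medians of the arrays lay between 178 and 247, and the lowest correlation of an array with another of its group was 0.884, in csn4 light. The 3′ over 5′ signal ratio of the GAPDH control, which rises as RNA is degraded, was 2.27 to 4.28 in 5 of the 6 WT arrays and 19.7 in WT dark replicate 2. It ran from 3.31 to 7.42 in csn5-labelled, from 6.82 to 24.6 in csn3 and from 6.49 to 130.1 in csn4 arrays, so that it was higher in every csn3 and csn4 array than in those 5 WT arrays. With the 5 arrays above 16 left out, 135 probe sets met the rule, of which 91 were among the 126, and the 126 had median differences from WT of -2.14 in darkness and -2.27 in light. That step leaves csn3 and csn4 arrays with higher ratios than WT, and the part of RNA quality in the members' levels was not tested.

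Of the 126 members, 51 carried 1 gene name, 2 matched several genes and 73 were unnamed here. Only 9 of the 51 have a symbol, and 42 are known by locus. The families given below for loci are background knowledge of the protein, not an entry of the files. Sequences of the members were not used here.

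**Figure D1:**
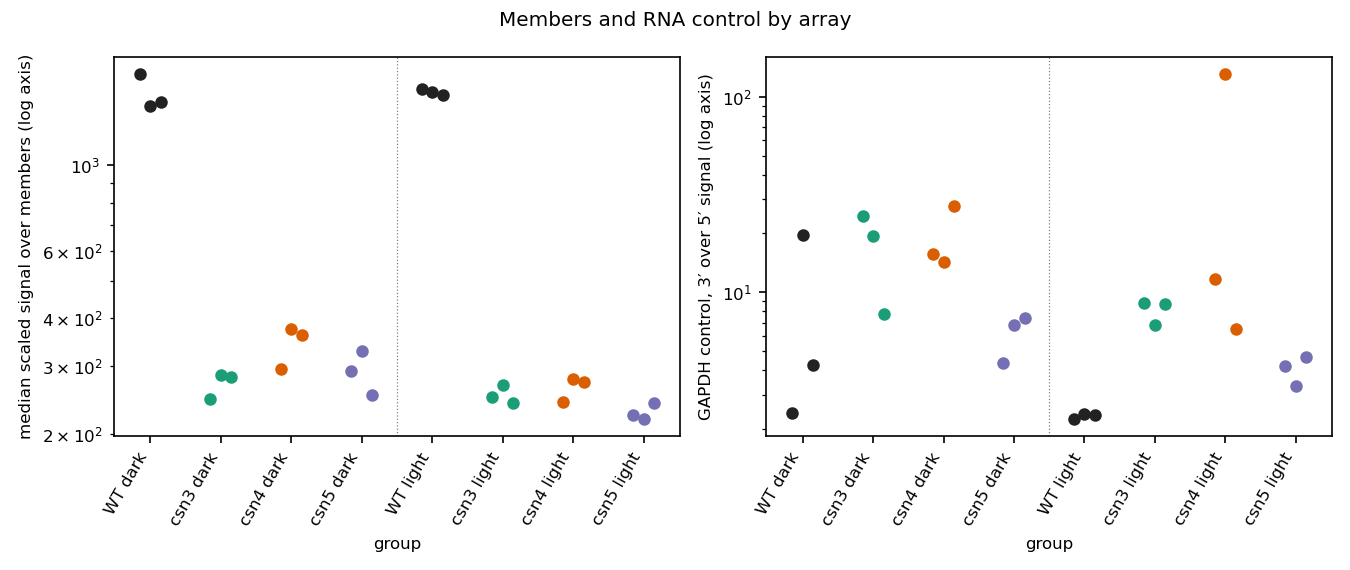
Left, the median scaled signal over the 126 members in each of the 24 arrays, on a log axis; right, the GAPDH control's 3′ over 5′ signal ratio in the same arrays, on a log axis. Points are single arrays. The WT arrays sit between 1427 and 1726 and the mutant arrays between 219 and 374.

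The members were bright in WT and ordinary in the mutants. Their median WT signal was 1506, against 296 over all tested probe sets, and 122 of 126 lay above that second value. In each mutant group the members' median signal was between 237 and 348, against 277 to 317 over all tested probe sets of the same groups. The plot of array medians shows the gap between WT and mutant arrays, which the rule set. Signals of WT over mutants had a median ratio of 5.07 in darkness (2.76 to 57.4) and of 6.44 in light (2.76 to 194).

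On the log2 scale the mean of the mutants minus WT had a member median of -2.09 in darkness and -2.30 in light, where the tested probe sets had 0.18 in both. It ran from -5.36 to -1.40 in darkness and from -5.54 to -1.39 in light. A difference of at least 2 in size was seen in 73 members in darkness and 82 in light, and of at least 3 in 15 and 23. Every mutant array lay below every WT array of the same condition in all 126 members, an order that 7.39% of tested probe sets showed (15.8% in darkness and 17.1% in light taken alone). The choice of members nearly fixes that count, so nothing is read from it. Mean signals under 100 in all 3 mutants, near the low end of the scale, occurred in 15 members in darkness and 28 in light; adding 50 before the log makes the ratio look smaller there.

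**Figure D2:**
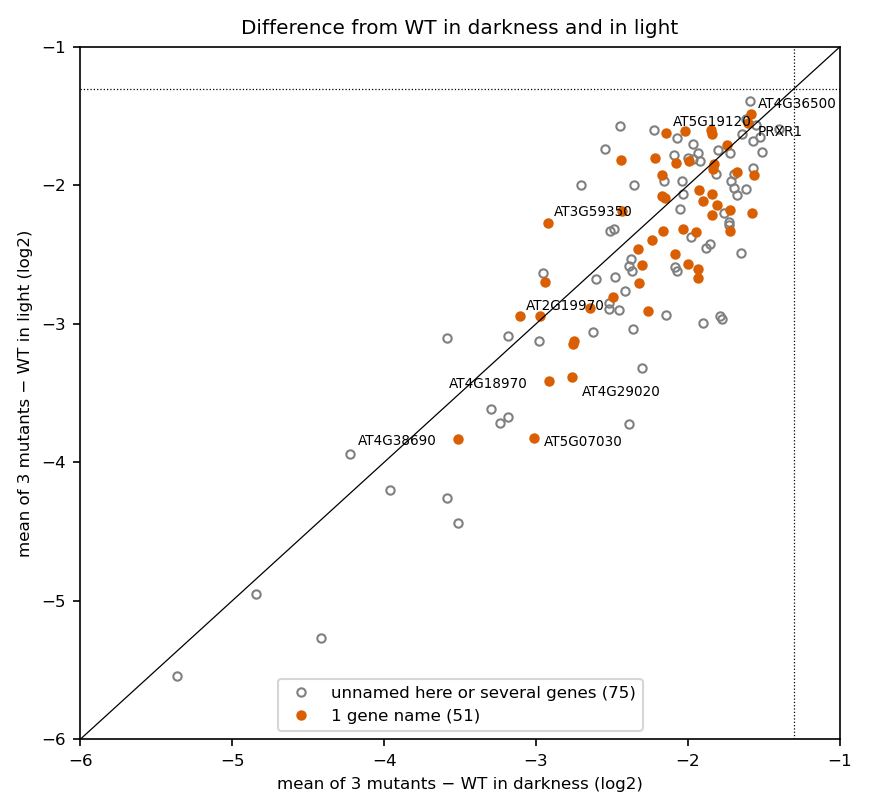
Each circle is 1 of the 126 members. The horizontal axis is the mean of the 3 mutants minus WT in darkness and the vertical axis the same in light, both in log2(signal + 50). Filled circles are the 51 members with 1 gene name, and the dotted lines mark -1.3, which the rule required of each mutant. The solid line marks equal differences, and 83 members lie below it.

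The difference was larger in size in light for 83 members and in darkness for 43. Among the named members AT5G07030 leaned furthest towards light, from -3.02 in darkness to -3.82 in light, and AT3G59350 leaned towards darkness, from -2.92 to -2.27. Those leanings are differences of values that the rule used.

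Cell wall and secreted proteins made up 12 of the named members, with a median of -2.05 in darkness and -2.32 in light. Among them AT2G19970, a secreted protein of the CAP family that also holds the defence marker PR1, had the largest difference in darkness. Its signal in WT was 571, 828 and 939 in the dark arrays and 668, 978 and 749 in the light arrays. In the dark mutants it was 43.4, 198 and 75 (csn3), 19.2, 16 and 10.1 (csn4) and 72.3, 51.7 and 11.2 (csn5-labelled). In the light mutants it was 66.7, 179 and 90.9 (csn3), 21.9, 20.3 and 83.5 (csn4) and 24.3, 86.8 and 33.2 (csn5-labelled). All 18 mutant arrays thus read below 200, and the csn4 dark arrays had the lowest mean of the dark groups. The mean of the mutants differed from WT by -3.11 in darkness and -2.95 in light.

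AT4G29020, a glycine-rich protein, was among the brightest members. Its WT signal was 11041, 8867 and 8753 in darkness and 8221, 7774 and 9123 in light. In darkness it was 629, 862 and 1247 (csn3), 1192, 2043 and 1623 (csn4) and 1564, 1820 and 1979 (csn5-labelled). In light it was 572, 701 and 751 (csn3), 769, 1440 and 1007 (csn4) and 469, 683 and 707 (csn5-labelled). Mutant arrays stayed well above the dim end of the scale here, so the differences of -2.76 in darkness and -3.39 in light do not rest on faint signals. The csn5-labelled arrays stood higher in darkness than in light with no overlap, which is tested below.

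Enzymes of pectin and cellulose turnover were AT1G04680, of the pectate lyase family (-2.49 in darkness and -2.80 in light), AT4G23820, of the polygalacturonase family (-1.72 and -2.33), and GH9C2, a glycosyl hydrolase of the endoglucanase family (-2.03 and -2.31). AT4G25260, of the family of inhibitors of pectin methylesterase and invertase, differed by -2.24 and -2.39. Relative to its mean, GH9C2 in darkness had the widest WT spread of these, with 1169, 351 and 883 in WT. Its dark mutant signals were 96.3, 102 and 138 (csn3), 119, 235 and 287 (csn4) and 141, 110 and 94.7 (csn5-labelled). WT dark replicate 2, the array of high GAPDH ratio, was thus close to the upper csn4 value and still above it.

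Small secreted peptides were represented by RALFL22, of the rapid alkalinization factor family that signals through receptor kinases at the cell surface, and LCR68, of the defensin-like family. RALFL22 in WT was 1946, 1742 and 1709 in darkness and 2108, 2481 and 1972 in light. In the mutants it ran from 335 to 673 in darkness and from 579 to 894 in light. With differences of -1.85 and -1.6 it was among the smaller ones, and its groups did not overlap. LCR68 differed by -2.08 in darkness and -1.84 in light. PRXR1, a class III peroxidase, which uses hydrogen peroxide at the cell wall, was the brightest of the 51 in light. Its signal was 14455, 11002 and 12701 in WT dark arrays and 13712, 14154 and 14711 in WT light arrays, against 2927 to 5919 in dark and 3382 to 6102 in light mutant arrays. It differed by -1.61 and -1.55. The remaining members of the group were the glycine-rich proteins AT5G61660 (-2.17 and -2.08) and AT1G67870 (-1.84 and -2.22) and the hydroxyproline-rich glycoprotein AT3G06750 (-1.95 and -2.33).

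**Figure D3:**
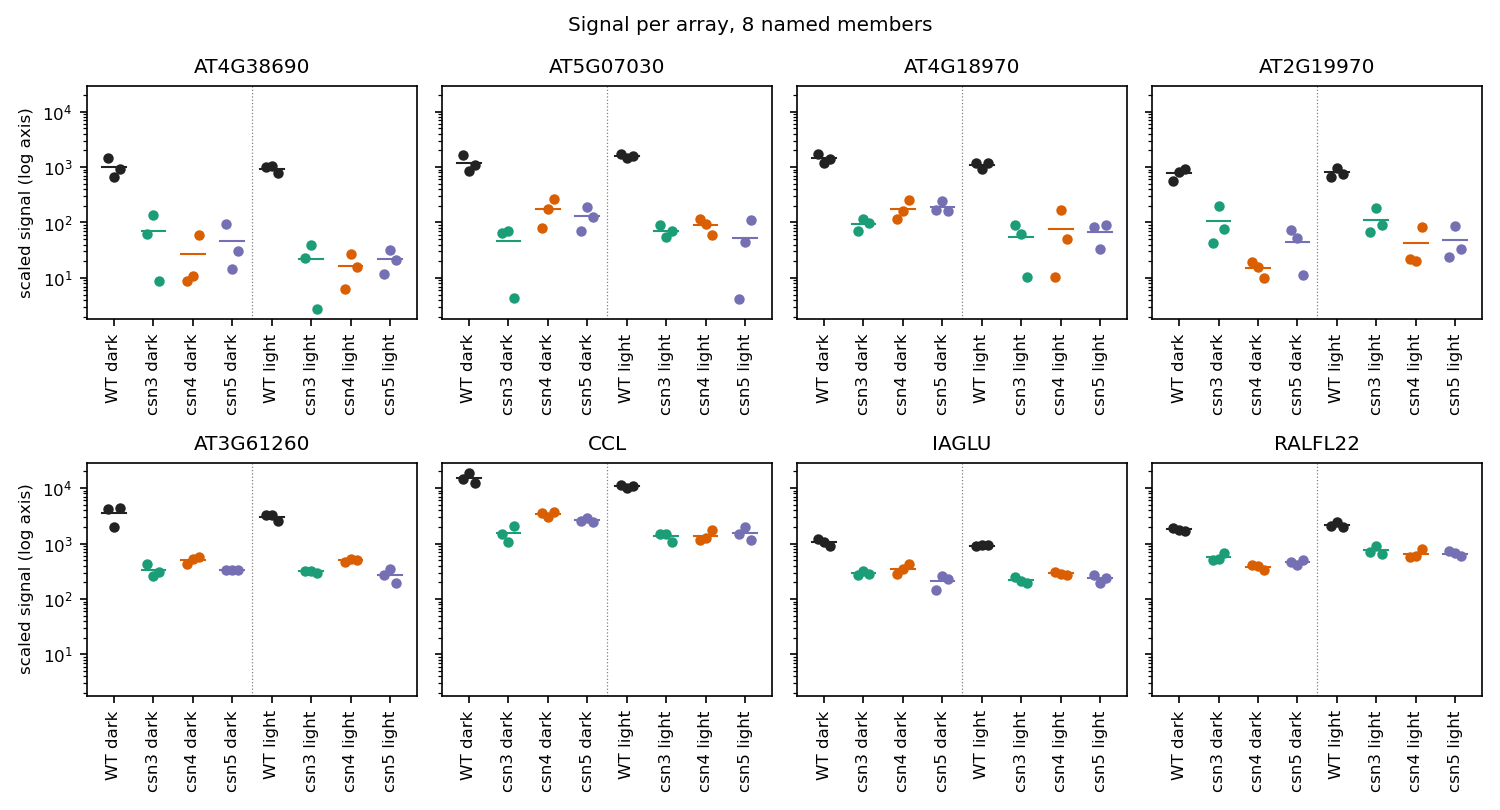
Scaled signal per array, on a log axis, for 8 named members in the 8 groups; points are single arrays and bars the mean of 3 arrays. In AT2G19970 all mutant arrays lie below 200 and the lowest WT array is at 571. In every panel the mutant arrays lie below the WT arrays of the same condition.

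Lipases, phosphatases and proteases came to 9 named members and had the lowest group medians, -2.30 in darkness and -2.70 in light. AT4G38690, of the family of phospholipase C-like phosphodiesterases, had the largest difference of the 51 members with 1 gene name in both conditions. Its WT signal was 1472, 667 and 931 in darkness and 1007, 1028 and 776 in light. In darkness it was 62.0, 136 and 8.80 (csn3), 8.9, 10.8 and 60 (csn4) and 95.1, 14.5 and 30.4 (csn5-labelled). In light it was 22.9, 39.3 and 2.80 (csn3), 6.30, 26.8 and 15.7 (csn4) and 11.9, 32.0 and 20.8 (csn5-labelled). The mutant signals were at the faint end of the scale and their order is not meaningful. The differences of -3.52 and -3.83 depend on the number added before the log. They were -4.27 and -4.80 with 16 added and -2.92 and -3.11 with 100 added.

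AT5G07030, an aspartyl protease, read 1626, 845 and 1111 in WT dark and 1703, 1461 and 1612 in WT light arrays. The dark mutant arrays held 64.9, 70.2 and 4.30 (csn3), 79.9, 172 and 266 (csn4) and 71.1, 194 and 127 (csn5-labelled). The light mutant arrays held 90.1, 55.2 and 69.7 (csn3), 115, 94.4 and 60.6 (csn4) and 4.10, 43.8 and 110 (csn5-labelled). In darkness csn4 and csn5-labelled arrays tended to read above csn3, while in light the mutants overlapped. Neither dark difference passed limma's test (adjusted p = 0.12 for csn3 against csn4 and 0.27 for csn3 against csn5-labelled arrays), and the mutant signals were faint. A second aspartyl protease, AT5G19120, differed by -2.14 in darkness and -1.62 in light.

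Esterases or lipases of the GDSL family, enzymes that act on ester bonds of lipids and cutin-like polymers, were represented by AT4G18970 (-2.92 in darkness and -3.42 in light), AT3G16370 (-2.27 and -2.91) and AT2G04570 (-2.30 and -2.58). AT4G18970 was 1744, 1192 and 1375 in WT dark and 1183, 942 and 1192 in WT light arrays, against 70.0 to 250 in dark and 10.5 to 172 in light mutant arrays. The acid phosphatase AT5G44020 was another bright member, at 10187 to 11859 in WT dark and 9763 to 11821 in WT light arrays, and differed by -2.32 and -2.70. AT4G29700, an alkaline phosphatase-like protein, and AT1G02660, an alpha/beta hydrolase, differed by -2.17 and -1.93, and by -2.22 and -1.80.

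Metabolic enzymes numbered 6, with medians of -1.92 in darkness and -2.01 in light. IAGLU attaches glucose to the auxin indole-3-acetic acid. It read 1199, 1053 and 900 in WT dark and 887, 937 and 928 in WT light arrays. In darkness it was 273, 319 and 280 (csn3), 280, 347 and 432 (csn4) and 146, 259 and 231 (csn5-labelled). In light it was 249, 213 and 198 (csn3), 313, 288 and 270 (csn4) and 267, 197 and 241 (csn5-labelled). The lowest WT array of darkness was at 900 and the highest mutant array at 432, and the differences were -1.75 and -1.71. MSRB5, which repairs oxidised methionine, differed by -2.0 in darkness and -2.57 in light, and was near the upper edge of the light window with 0.49. The dehydrogenase-like AT5G02540 (-2.76 and -3.14) and AT3G50560 (-1.57 and -1.92), the transaldolase-like AT1G12230 (-1.83 and -1.85) and the acyltransferase AT2G39980 (-2.15 and -2.09) made up the rest.

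Signalling, membrane and cytoskeleton proteins numbered 5, with medians of -2.02 and -2.20. AT3G61260, a remorin, one of the proteins that mark nanodomains of the plasma membrane, was 4243, 1958 and 4391 in WT dark and 3265, 3292 and 2503 in WT light arrays. In darkness it was 432, 255 and 301 (csn3), 429, 527 and 580 (csn4) and 327, 329 and 335 (csn5-labelled). In light it was 325, 321 and 297 (csn3), 470, 524 and 498 (csn4) and 272, 349 and 190 (csn5-labelled). In light the csn4 arrays were the highest of the mutants, without overlap. The differences of -2.97 and -2.94 were nearly equal in the conditions, and the dark one was -3.40 without the 5 arrays of high GAPDH ratio. AT3G59350, a protein kinase (-2.92 and -2.27), IQD22, a calmodulin-binding IQ-domain protein (-1.58 and -2.20), ARLA1D, a small GTPase of the ADP-ribosylation factor type (-2.02 and -1.61), and AT2G35880, of the TPX2 family of microtubule proteins (-1.99 and -1.83), completed the group.

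Nuclear, RNA-binding and F-box proteins numbered 4, with medians of -1.88 and -2.11. They were AT1G06760, a linker histone H1 (-1.73 in darkness and -2.18 in light), AT3G12710, a DNA glycosylase-like protein (-1.93 and -2.03), AT1G22330, an RNA-binding protein (-1.93 and -2.61), and AT3G23880, an F-box protein (-1.84 and -1.63). F-box proteins are the substrate receptors of one class of cullin ligases.

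For 15 named members no role was assigned, with medians of -2.09 and -2.19. The brightest of them was CCL, known as a clock-regulated transcript with rapid turnover. It read 14876, 18665 and 12536 in WT dark and 11215, 10073 and 10906 in WT light arrays. In darkness it was 1501, 1059 and 2079 (csn3), 3502, 3030 and 3747 (csn4) and 2605, 2914 and 2477 (csn5-labelled). In light it was 1476, 1483 and 1080 (csn3), 1161, 1261 and 1755 (csn4) and 1462, 2010 and 1178 (csn5-labelled). In darkness csn3 was lowest and csn4 highest of the mutants, whereas in light they overlapped. CCL differed from WT by -2.64 in darkness and -2.89 in light and was the last member inside the light window, with -0.50. AT5G40450 (-2.94 and -2.70) and AT5G50335 (-2.75 and -3.12) had the largest differences of the group in darkness, and AT5G50335 the largest in light.

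**Figure D4:**
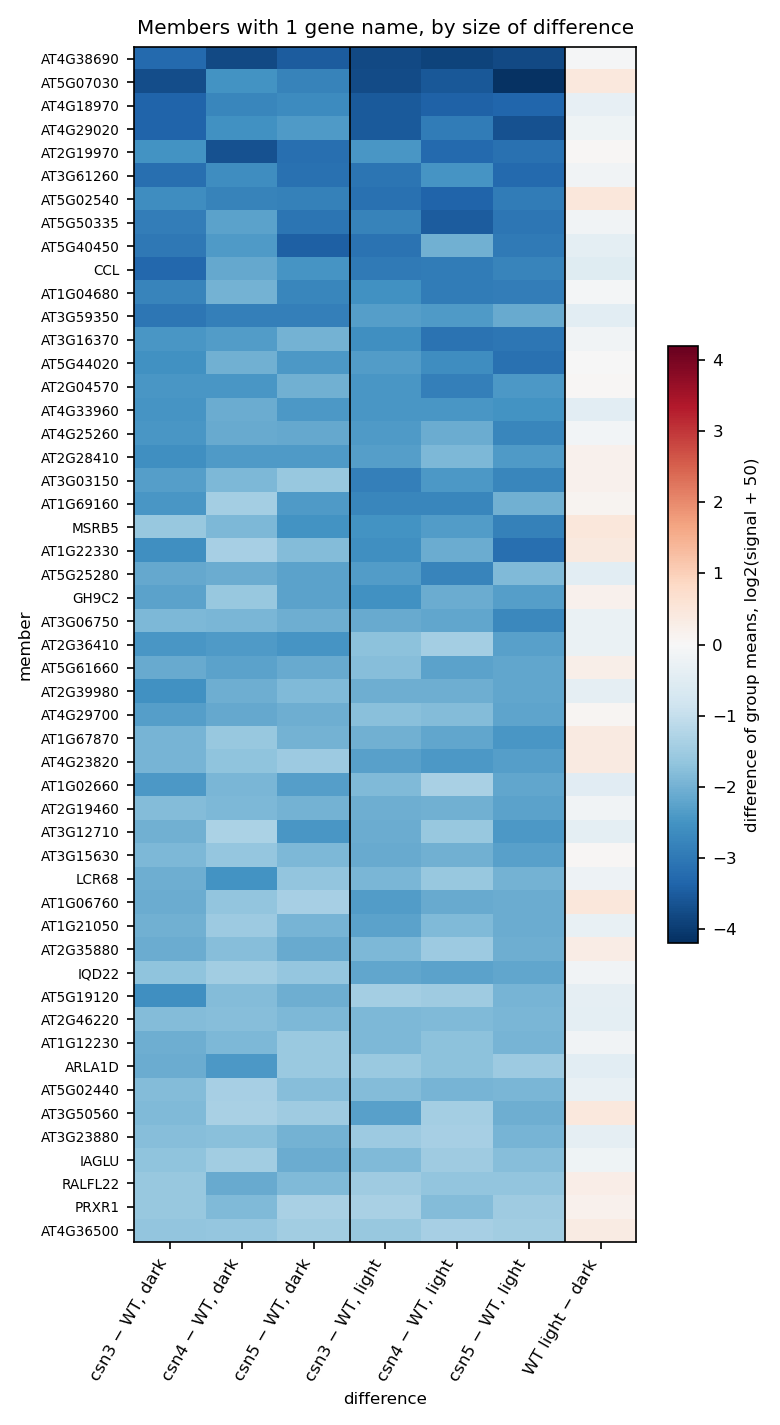
Rows are the 51 members with 1 gene name, ordered by the mean of their differences in darkness and light; columns are each mutant minus WT in darkness and in light and, last, WT light minus dark, as differences of group means in log2(signal + 50). Blue is lower and red higher. AT4G38690 is at the top, with -3.52 in darkness and -3.83 in light for the mean of the mutants, and AT4G36500 is at the bottom, with -1.58 and -1.48.

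The unnamed members reached further down. The largest difference was that of probe set 245736_at, -5.36 in darkness and -5.54 in light, which read 5173 to 6979 in WT dark and 4190 to 5574 in WT light arrays, and 8.60 to 267 in dark and 2.5 to 248 in light mutant arrays. The next in darkness was 259839_at, with -4.84 and -4.96. Both are named after their values were seen. Of the 2 members that match several genes, 260130_s_at (BGLU22 and BGLU21) differed by -4.23 in darkness and -3.94 in light.

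The edges of the set were not sharp. By the least affected of the 6 mutant groups, the members just inside were AT3G12710 (-1.32), AT1G02660 (-1.35) and PRXR1 (-1.36), and just outside were AT3G11930 (-1.29), AT2G40480 (-1.28) and AT3G06070 (-1.27). By WT light minus dark, CCL (-0.50), MSRB5 (0.49) and AT1G06760 (0.48) were just inside, and AT3G15450 (-0.50), AKINBETA1 (-0.51) and AT5G48900 (-0.51) just outside.

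The members were a part of a wider group. In all, 323 probe sets were lower in each mutant by the same threshold in darkness and light, of which 37 were higher in light in WT, 157 were lower in light and 129 lay within the window. The mirrored rule for higher levels in every mutant was met by 184 probe sets. The 50 members found in the gene table lay on chromosomes 1 to 5 as 9, 9, 10, 12 and 10 genes. Their shares were 18, 18, 20, 24 and 20%, against 26.2, 14.9, 20.1, 14.6 and 23.5% of the tested ones found there. No pair of these members were neighbours, and the closest, AT5G02440 and AT5G02540, were 11 genes apart.

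Other genes of the pathways that the members represent were few among the named probe sets, and 1.72% of all tested probe sets were past the threshold of -1.3 in every mutant and condition. EXPA4, EXPA8, WES1, HAT2, JAL22, PYK10 and LHCB4.2, all among the genes left out by name, were among those past it. Of these, EXPA8, HAT2, JAL22 and LHCB4.2 also lay outside the light window. Their WT light minus dark was -0.906, 1.176, -1.835 and 1.295. Of 3 class III peroxidases named by symbol, PRXR1 was past it, and the list medians of the mutants minus WT were 0.09 in darkness and 1.13 in light. A further 5 class III peroxidases, measured as root markers and known by locus, were all below WT, by -2.69 to -1.78 in darkness and -1.72 to -0.40 in light, and none was past the threshold in every mutant. Of 16 tested expansins 3 were past it (medians -0.72 in darkness and -0.81 in light), and of 3 jacalin-related lectins all 3 (-3.74 and -2.84), which lay outside the window because WT was lower in light. Of 10 listed and tested genes of auxin response, transport and conjugation 2 were (list medians -0.98 and -0.88). These were HAT2 and WES1, both left out by name. None of the 7 xyloglucan endotransglucosylases, 3 pectin-modifying enzymes, 17 cytochrome P450 enzymes or 41 UDP-glycosyltransferases listed and tested was. The lists are incomplete. They do not hold the pectin-related members AT1G04680, AT4G23820 and AT4G25260 or the auxin glucosyltransferase IAGLU, all past the threshold.

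In whole seedlings, fewer cells of a type and less RNA per cell cannot be told apart. Of 24 root hair markers 5 were measured, and their summed signal was 1039 to 1953 in WT dark and 57.9 to 476 in dark mutant arrays, and 661 to 846 in WT light and 123 to 519 in light mutant arrays. Of 22 other root markers 5 were measured, with sums of 36690 to 39280 in WT dark against 6608 to 11070 in dark mutant arrays, and 19340 to 20300 in WT light against 5744 to 10870 in light mutant arrays. PYK10, which met the rule itself, gave most of the second sum.

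Without the genes left out of the members by name, 3 markers remained in each list. The root hair sums were then 409 to 569 in WT dark and 20.5 to 302 in dark mutant arrays, and 236 to 311 in WT light and 62.6 to 290 in light mutant arrays, which overlap. The other root sums were 11820 to 14600 in WT dark and 1732 to 3923 in dark mutant arrays, and 2419 to 2846 in WT light and 1012 to 2774 in light mutant arrays, which overlap too. The 1 measured endodermis marker, GSO1, read 526 to 633 in WT dark and 71.0 to 195 in dark mutant arrays. In light it overlapped, at 125 to 219 in WT and 59.5 to 232 in the mutants. Root marker signal without the genes left out by name was thus lower in every dark mutant array than in WT dark, whereas in light WT and mutant arrays overlapped. The 1 measured mesophyll marker, RCA, which activates Rubisco, went the other way in darkness (1017 to 2869 in WT and 8086 to 19540 in the mutants) and was lower in the mutants in light. The part of these cells in the members' levels was not tested.

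Whether light changes the members once the signalosome is defective is a contrast that the rule did not name, although the same mutant arrays entered the rule. In csn3 none of the 126 members passed limma's test between light and darkness, where 0.88% of tested probe sets did. Passing meant an adjusted p below 0.05 and a log2 difference of 1 or more in size. An unadjusted limma p under 0.05 was seen in 19 members. The share of all tested probe sets at that level was not computed, so nothing is read from the 19. The median light minus dark difference of the members in csn3 was 0.02, against -0.02 over all tested probe sets, and 103 members stayed within the window of 0.5 that had been required of WT. That was 81.7% of members, against 80.5% of tested probe sets and 83.2% of those that met the window in WT.

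In csn4, 12 members passed, where 3.49% of tested probe sets did. Of the 12, 11 were lower in light, where 1.36% of tested probe sets were, and 1 was higher, where 2.13% were. The members' median was -0.25 against -0.05 over all tested probe sets, 69.8% of members were below 0 against 54.7%, and 62.7% lay within the window of 0.5 against 71.3%. Record range and light cannot be told apart in this contrast. In csn5-labelled arrays, which share 1 record range, 11 members passed, where 3.82% of tested probe sets did. All 11 were lower in light, where 1.38% of tested probe sets were. The members' median was -0.22 against 0.02, 72.2% of members were below 0 against 48.3%, and 69.0% lay within the window against 73.3%. The members' lower calls in csn4 and csn5-labelled arrays had 3 probe sets in common, 27.3% of each list, all unnamed here. The overlap of such calls over all tested probe sets was not computed, so nothing is read from it. The members' shares called, 9.52% in csn4 and 8.73% in csn5-labelled arrays, were thus above the shares over all tested probe sets. Of the tested probe sets that met the window in WT, 2.57% passed in csn4 and 2.63% in csn5-labelled arrays. Among those, 73.7% and 77.5% lay within the window of 0.5 in these lines.

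**Figure D5:**
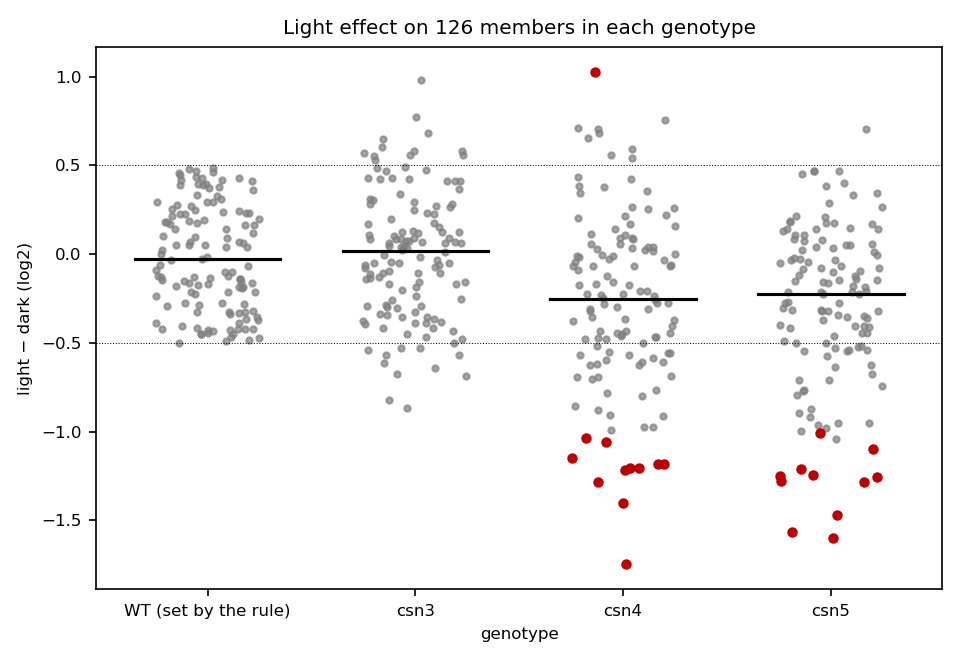
Light minus dark difference of the 126 members in each genotype, in log2(signal + 50). Each point is 1 member with random sideways jitter, bars are medians, dotted lines mark -0.5 and 0.5, and red points passed limma's test. WT lies within the dotted lines because the rule required it. In csn3 no point is red, in csn4 12 and in csn5-labelled arrays 11.

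Among the named members, CCL had the firmest light difference in csn4, -1.29 ± 0.21 (SE; limma adjusted p = 0.00046), from a mean of 3426 in darkness to 1392 in light, lower in 3 of 3 light arrays than in any dark array. AT5G25280 fell by 1.15 ± 0.28 (adjusted p = 0.011, limma), AT1G69160 by 1.18 ± 0.30 (adjusted p = 0.013, limma), AT1G04680 by 1.03 ± 0.24 (adjusted p = 0.0066, limma) and AT5G50335 by 1.40 ± 0.45 (adjusted p = 0.046, limma). AT5G25280 read 1587, 1654 and 1455 in csn4 dark and 927, 272 and 1170 in csn4 light arrays, so that replicate 2 was far below the others. AT1G69160 read 119, 78.7 and 78.1 in darkness and 4, 25.8 and 8.4 in light, from faint signals. AT1G04680 read 292, 319 and 416 in darkness and 105, 172 and 150 in light. AT5G50335 read 7.8, 307 and 188 in darkness and 7.2, 34.1 and 5.5 in light, and its groups overlapped. These 4 calls rested on single arrays or settings, unlike that of CCL. The call of AT5G25280 was lost without csn4 light replicate 2, the array of GAPDH ratio 130.1, where the difference was -0.56. That of AT1G04680 was lost without csn4 dark replicate 3 (-0.90) or csn4 light replicate 1 (-0.89), and that of AT1G69160 without csn4 dark replicate 1 (-1.05). AT5G50335 lost its call in 14 of the 24 fits that left out 1 array, down to -0.87 without csn4 dark replicate 2. With only the groups compared in the fit, all 4 calls were lost. Those of AT1G69160 and AT1G04680 were also lost with 100 added, and those of AT1G69160 and AT5G50335 with quantile normalization.

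In csn5-labelled arrays the 2 named members that passed were AT4G29020, which fell by 1.47 ± 0.23 (adjusted p = 0.00014, limma), from 1788 to 619, and AT3G16370, which fell by 1.21 ± 0.20 (adjusted p = 0.00025, limma), from 2622 to 1107. AT3G16370 read 2721, 2818 and 2328 in the dark and 1121, 1238 and 962 in the light arrays of that line, with no overlap. Both calls held in all 24 fits that left out 1 array. In WT the same genes differed between light and darkness by -0.18 and -0.16.

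The probe set with the most calls was 258054_at, unnamed here and singled out after its values were seen. It read 1878, 2825 and 2272 in csn4 dark and 409, 961 and 682 in csn4 light arrays. In csn5-labelled arrays it read 1666, 3438 and 2145 in darkness and 738, 826 and 680 in light. In csn3 it was 431, 571 and 1062 in darkness and 563, 575 and 613 in light, so that csn3 was low in both conditions. In light it fell by 1.75 ± 0.27 in csn4 (adjusted p = 0.00019, limma) and by 1.57 ± 0.27 in the csn5-labelled line (adjusted p = 0.00033, limma), and in darkness csn3 was lower than csn4 (log2 difference -1.76, adjusted p = 0.0016, limma).

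No member passed the test of the difference in light effect between mutants, where 0.00533% of tested probe sets passed for csn4 against csn3, 0.0267% for csn5-labelled against csn3 and 0.0373% for csn5-labelled against csn4. Unadjusted p-values under 0.05 numbered 22, 24 and 17, or 17.5%, 19.0% and 13.5% of members, against 6.13%, 6.81% and 8.95% of tested probe sets. The members' medians were -0.21, -0.33 and -0.06, against -0.02, 0.04 and 0.06 over all tested probe sets. The differences that involve csn4 cross the record ranges. A light effect passing in csn4 or csn5-labelled arrays and not in csn3 is therefore not shown to differ between the lines.

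The mutants were also compared with each other, which the rule did not name. In darkness 4 members passed between csn3 and csn4, all lower in csn3, where 0.448% of tested probe sets passed and 0.219% were lower. Between csn3 and csn5-labelled arrays 2 passed, both lower in csn3 (0.341% of tested probe sets passed and 0.187% were lower). Between csn4 and csn5-labelled arrays 3 passed, all higher in csn4 (1.97% passed and 1.41% were higher). In light no member passed between csn3 and csn4, where 0.0213% of tested probe sets did. There 20 members had an unadjusted limma p under 0.05. That share over all tested probe sets was not computed, so nothing is read from the 20. Light-grown csn3 and csn5-labelled arrays gave 1 call, higher in csn3 (0.384% passed and 0.235% were higher). Light-grown csn4 and csn5-labelled arrays gave 5, all higher in csn4 (1.93% passed and 1.29% were higher). In light, csn4 against either other mutant cannot be told apart from the record range. The members' shares called were 3.17%, 1.59% and 2.38% in darkness and 0%, 0.794% and 3.97% in light. Over all 9 contrasts, 25 members passed at least 1 and 101 passed none. The share of all tested probe sets that passed at least 1 was not computed, so nothing is read from these counts.

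CCL was lower in csn3 than in csn4 in darkness (log2 difference -1.17 ± 0.21, adjusted p = 0.0084, limma). The call was lost without csn3 dark replicate 2 (-0.93) and without the 5 arrays of high GAPDH ratio (-0.64), which include 2 of the csn3 dark arrays and 1 of csn4 dark. AT3G12710 was higher in csn4 than in csn5-labelled arrays in darkness by 1.11 ± 0.30 (adjusted p = 0.039, limma). It read 287, 352 and 325 in csn4 against 122, 131 and 111 in the csn5-labelled line, with no overlap. AT1G22330 was higher in csn4 than in csn5-labelled arrays in light by 1.09 ± 0.30 (adjusted p = 0.04, limma), from faint signals of 111, 74.1 and 53.9 against 2.4, 3.5 and 26.3, across the record ranges. Both calls were near the threshold: they were lost in 8 and 10 of the 24 fits that left out 1 array, with differences of 1.05 to 1.18 and 0.93 to 1.27.

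Several of these counts turned on 1 array. Between csn3 and csn5-labelled arrays in darkness the 2 calls became 1 without csn3 dark replicate 1, csn5 dark replicate 1 or csn5 dark replicate 3, 4 without csn4 light replicate 2 and 7 without csn3 dark replicate 3. Between csn4 and csn5-labelled arrays in darkness the 3 calls became 1 without csn4 dark replicate 3, csn5 dark replicate 1 or csn5 dark replicate 3, and 5 without csn3 dark replicates 1 or 3, csn4 light replicate 2 or csn4 light replicate 3. In light the 5 calls between those lines became 1 without csn4 light replicate 2, csn5 light replicate 1 or csn5 light replicate 3, 3 without csn3 light replicate 1, csn5 light replicate 2, WT dark replicate 3 or any of the 3 WT light arrays, and 12 without csn4 light replicate 3. The single call of light-grown csn3 against csn5-labelled arrays was lost without csn3 light replicate 2, csn3 light replicate 3, csn5 light replicate 1 or csn5 light replicate 3. From 0, csn3 light against darkness gained 1 call without csn3 dark replicate 3, and csn3 against csn4 in light gained 2 without csn4 light replicate 3.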

How the data were processed

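The authors deposited linear signal intensities, 1 per probe set and array, computed by MAS5 according to the submitters' processing notes. Its version and any filters are not given in the sources used here. Each array was rescaled to a 2% trimmed mean of 500 and 50 was added before log2. Of 22810 probe sets, 64 controls were left out, and the 18751 of the other 22746 that reached 100 on 3 or more arrays entered the tests. In R 4.3.3, limma 3.58.1 (lmFit, eBayes with an intensity trend) estimated 8 group means from the 24 arrays, with Benjamini-Hochberg adjustment over all tested probe sets. A call required an adjusted p below 0.05 and a difference of 1 or more in size on the log2 scale. Detection calls were not used here, and the number of arrays limits the precision.

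Gene names came from the platform table, with symbols replaced from a TAIR10.1 gene table, which served only for names and gene order. The members, lists and groups were chosen with earlier results of these data known. Named genes were the 8 largest differences in darkness and the 8 in light, members called in a tested contrast, list members, those at the thresholds and those of known role. Named members were grouped by role after they were known. The script was tested on simulated data. Replicate numbers did not pair arrays, with correlations of deviations from -0.34 to 0.38 (median 0.01) over 77 same-numbered pairs. Promoter sequences were not used here.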

Additional observations from a re-analysis of the deposited data

How the results depend on the processing

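The number of members was 119 to 145 when 1 array was left out, 211 with a threshold of -1.0, 72 with -1.6 and 64 with a light window of 0.25. It was 136 with quantile normalization (113 of the 126 shared), 154 with 16 added (125 shared), 109 with 100 added (103 shared) and 135 without the 5 arrays of high GAPDH ratio (91 shared), a setting chosen after seeing the data. Quantile normalization moved the median of all tested probe sets for the mutants minus WT from 0.18 to 0.07 in darkness and 0.04 in light. Leaving out 1 array gave 0 to 1 calls for light in csn3, 8 to 15 in csn4 and 9 to 12 in csn5-labelled arrays. In darkness it gave 3 to 6 calls between csn3 and csn4, 1 to 7 between csn3 and csn5-labelled and 1 to 5 between csn4 and csn5-labelled arrays, and in light 0 to 2, 0 to 1 and 1 to 12.

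With 100 added, light in csn4 gave 5 calls, csn3 against csn4 in darkness 2, csn3 against csn5-labelled in darkness 1 and csn4 against csn5-labelled in light 2. With 16 added, csn3 against csn4 in darkness gave 7. With only the groups compared, these were 2, 1, 1 and 0, and csn4 against csn5-labelled in darkness gave 5; fewer arrays estimate the spread there. For csn4 against csn5-labelled in light, quantile normalization gave 2 and eBayes without an intensity trend 3. Without the 5 arrays of high GAPDH ratio, csn3 against csn4 in darkness gave 2, csn3 against csn5-labelled in darkness 0 and csn4 against csn5-labelled in light 3. With the replicate number as a block, which left out csn3 dark replicate 3 because its label repeats number 1, csn3 against csn5-labelled in darkness gave 7 and csn4 against csn5-labelled in darkness 5, and 7 of 23 arrays correlated best with their own number; the block moved no other count by over 1.5 times. The causes were not tested. Of the tested values of named genes, none changed sign. Faint mutant signals limit the size of a difference more than its direction.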
